A study of Mus musculus with 6 samples.

Results

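The autophagy and lysosome genes described here are the 34 rows, of 24404 genes in the count table, whose symbols appear on a fixed list that follows the pathway from the kinase that starts an autophagosome to the enzymes of the lysosome. The list was taken by name, with no measured value in its rule, but it was chosen with earlier results of these data known. All 34 passed the filter on low counts, each with at least 48 reads in every library. RNA was sequenced from 3 heart samples of mice lacking miR-204 (KO-TAC, genotype miR-204-/-) and 3 of wild-type mice (WT-TAC), each taken 5 weeks after transaortic constriction. In this operation a band around the aorta makes the left ventricle pump against high pressure. Both genotypes were operated on and no unoperated heart was analysed here, so all values compare 2 kinds of loaded heart. Strain, sex and age, and the cells in which miR-204 was removed, are not given in the sources used here, and nothing there says whether a library is 1 animal, so the tests read only the spread among these 6 libraries, which may be technical.

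Autophagy encloses cytoplasm in a double membrane and delivers it to the lysosome for digestion. A kinase complex starts the process, a lipid kinase marks the membrane, conjugation enzymes attach small ubiquitin-like proteins of the Atg8 family (the LC3 and GABARAP proteins) to it, cargo receptors bind these proteins, and the closed autophagosome fuses with a lysosome. Heart muscle cells rarely divide and depend on this route to clear worn mitochondria and protein aggregates, and pressure load is known to alter its activity. Map1lc3b, which encodes LC3B, is a reported target of miR-204, and the comparison asks how transcripts of the pathway stand in the loaded heart when that microRNA is absent. Flux through the pathway is set largely by protein modification, and it was not measured here.

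Library totals ran from 6609315 to 8494415 counts in KO-TAC and from 6411538 to 8571737 in WT-TAC. Values are CPM, read counts divided by the scaled library total, and fold changes are log2 of KO-TAC over WT-TAC from edgeR's quasi-likelihood test, each with its standard error (SE). One doubt touches KO-TAC replicate 3: its column carries the number that WT-TAC replicate 3 carries in its label, and was assigned by its library index. These 2 libraries also had the closest counts of all 15 pairs, with a median chi-square per gene of 2.999 against 3.82 to 7.12 for the others, still above sampling noise. The deleted gene cannot check the labels, since Mir204 had 0 counts in every library of both genotypes. A pseudogene chosen after its values were seen, H2-Ea-ps, had 67, 48 and 59 counts in KO-TAC replicates 1 to 3, against 0, 0 and 1 in WT-TAC replicates 1 to 3. The groups thus differ in this gene too, for a reason that was not tested and that cannot be told apart from genotype here. Heart muscle markers were abundant, with 10 genes summing to between 73539 and 103698 CPM in KO-TAC and between 78742 and 93298 CPM in WT-TAC. Of 7 listed T and B cell markers, 0 passed the filter, with at most 34 counts in a library.

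No gene of any step was called changed between the genotypes, and the steps themselves were not tested. Of the 34 genes, 0 passed at an adjusted p under 0.05 in edgeR, beside 3 of all 12487 tested genes (0.024%), and each had an adjusted p of 0.999. Fold changes of 20 genes were above 0 and of 14 below, with a median log2 fold change of 0.12, against 0.001 over all tested genes, of which 50.2% were above 0. With 1 library left out the number above 0 ran from 18 (WT-TAC replicate 1 left out) up to 25 (KO-TAC replicate 1) and 26 (WT-TAC replicate 3). Leaving out 1 library kept that median above 0, at 0.07 without KO-TAC replicate 1, 0.08 without KO-TAC replicate 2 as also without WT-TAC replicate 1, 0.09 without KO-TAC replicate 3, and at most 0.12 without WT-TAC replicate 3. The fold changes themselves were small, from −0.54 for Pik3c3 to 0.65 for Ctsl, and for 31 of 34 genes the 95% interval lay wholly within a 2-fold change in either direction, which held for 62.0% of all tested genes. That contrast also reflects precision, since the median SE was 0.21 for the 34 genes and 0.29 over all tested genes. Median absolute log2 fold changes were 0.14 and 0.19.

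**Figure D1:**
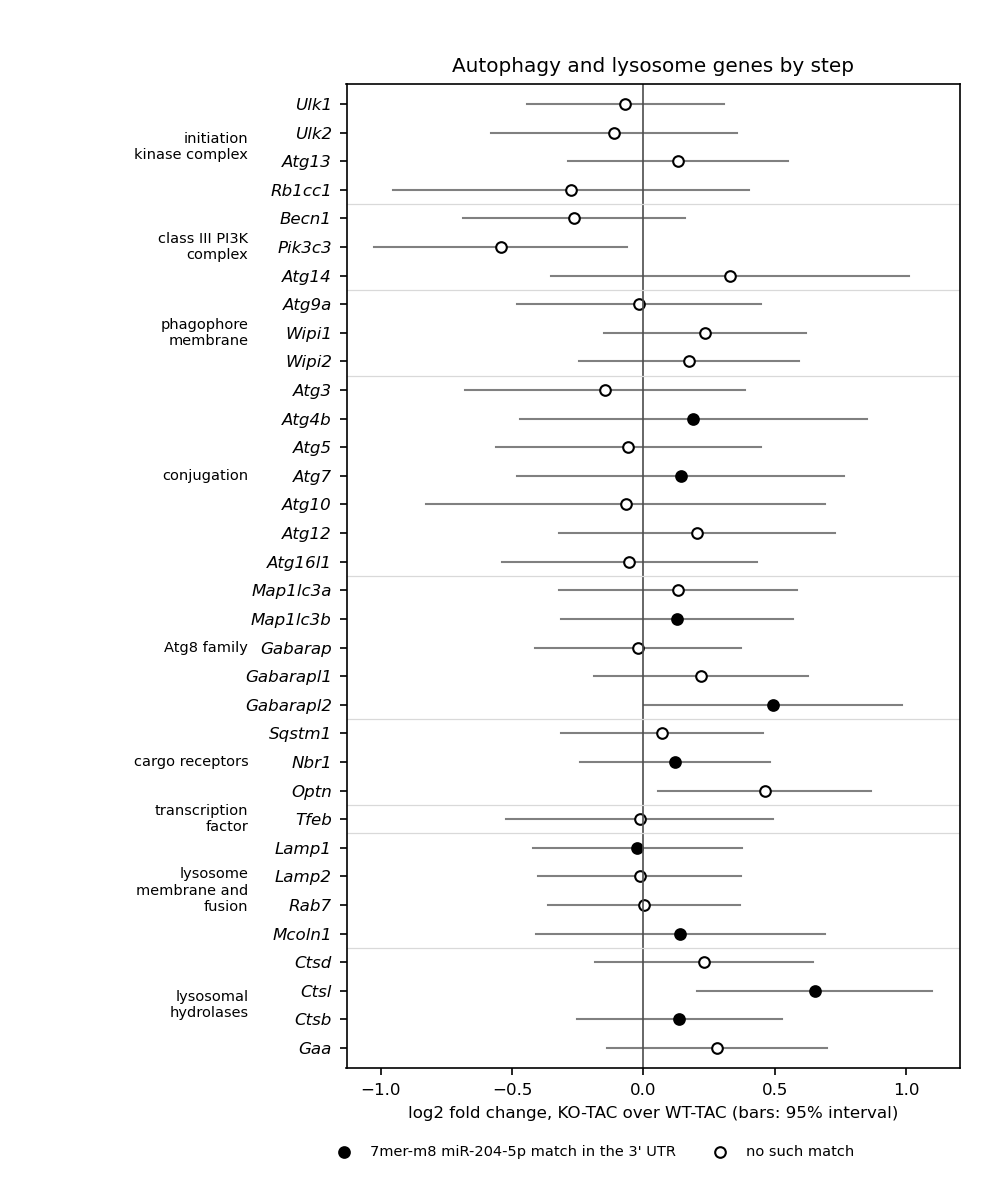
Log2 fold change, KO-TAC over WT-TAC, of the 34 genes in the order of their steps, with 95% intervals from edgeR (n = 3 libraries each). Filled points are genes whose 3' UTR holds a full match to bases 2 to 8 of miR-204-5p. Points lie between −0.54 (Pik3c3) and 0.65 (Ctsl), and 30 of the 34 intervals include 0.

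Before adjustment, 4 of the 34 genes (11.8%) had a p under 0.05, beside 2.93% of all tested genes: Ctsl, Optn, Pik3c3 and Gabarapl2. That count was 2 without KO-TAC replicate 1 (beside 359 of 12869 tested genes) or 2 (297 of 12873). It was 1 without WT-TAC replicate 1 (437 of 12866) or 2 (369 of 12817). Without KO-TAC replicate 3 it was 3 (723 of 12948), as without WT-TAC replicate 3 (489 of 12835). In 5 of the 34 genes every KO-TAC library stood above every WT-TAC library (14.7%, beside 4.26% of all tested genes), namely Ctsl, Optn, Gaa, Wipi1 and Ctsd. The reverse held for 0 of the 34, beside 3.72% of all tested genes, so 5 of 34 did not overlap in either direction, beside 7.98%. The 34 genes were chosen with earlier results of these data known, so these shares describe them and are no test. With 1 library left out a gap arises more easily, also in the background. KO-TAC stood above in 8 of 34 genes without KO-TAC replicate 1 (8.23% of all tested genes) and in 8 in the absence of KO-TAC replicate 3 (11.9%). It did so in 7 without KO-TAC replicate 2 (7.79%) or WT-TAC replicate 3 (8.98%), and in 6 without WT-TAC replicate 1 (8.74%) or 2 (8.88%). It stood below in 3 without KO-TAC replicate 3 (10.6%), 3 without KO-TAC replicate 2 (7.64%), 1 without KO-TAC replicate 1 (7.97%) and 2 without WT-TAC replicate 3 (9.11%). Without WT-TAC replicate 1 (7.96%) or 2 (7.36%) it stood below in 0.

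The microRNA and its matches in these transcripts come first, since loss of miR-204 is the only difference between the groups that the labels give. A microRNA pairs with messenger RNA mainly through its seed, bases 2 to 8, and lowers the stability or translation of the transcripts it binds. The mature sequences below are RefSeq entries (GRCm38.p6), with the seed in capitals. They show that miR-211-5p, from another chromosome, carries the same seed as miR-204-5p. The entry of miR-7670-3p, on chromosome 6, also has this seed and is not shown.
mmu-miR-204-5p: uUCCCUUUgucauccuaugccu
mmu-miR-211-5p: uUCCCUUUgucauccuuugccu

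A 7mer-m8 match, AAAGGGA on the sense strand, pairs with the whole seed, and an 8mer, AAAGGGAA, is a 7mer-m8 followed by A. In the longest annotated 3' UTR, 9 of the 34 genes (26.5%) held a 7mer-m8 match, 8mers included, against 17.0% of 11669 tested genes with an annotated 3' UTR. Median 3' UTR length was 1379 bases among the 34 genes and 1253 bases among these tested genes. The 9 genes were Map1lc3b, Gabarapl2, Atg4b, Atg7, Nbr1, Lamp1, Mcoln1, Ctsl and Ctsb, and each of them also held a match in a principal transcript. Shown here are both Map1lc3b matches, because that gene is the reported target, and those of the 2 genes with the largest fold changes among the 9 and of Lamp1, the only one of the 9 below 0. Capitals mark the match, and positions are GRCm38.
Map1lc3b, principal transcript, chr8:121596800-121596829, plus strand: ccttaccaaggcaaAAAGGGAtgttaccag
Map1lc3b, an alternative 3' end, chr8:121592599-121592628, plus strand: ccatagatgtcagaAAAGGGAgttataggt
Gabarapl2, chr8:111952688-111952717, plus strand: gtaggtgtggtggtAAAGGGAAaaggaggg
Ctsl, chr13:64360438-64360467, minus strand: ttacaaaaggaagaAAAGGGAgactaaaga
Lamp1, chr8:13174878-13174907, plus strand: gatttaagccttacAAAGGGAAtctctggt

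In Map1lc3b the first of these matches begins at base 44 of a 3' UTR of 1990 bases and is shared by 3 of the 4 coding transcripts, while the second belongs to 1. Gabarapl2, Lamp1 and Ctsl have 8mer, 8mer and 7mer-m8 matches, the last at base 3645 of a 3' UTR of 4761 bases that 1 of 3 coding Ctsl transcripts carries. Nbr1 holds 2 8mers in 6 of 8 coding transcripts, and the short 3' UTR of Mcoln1 (182 bases in its principal transcript) holds a 7mer-m8 in all 4 and an 8mer in 3. Fold changes of the 9 genes were above 0 for 8 and had a median log2 value of 0.14. For the 25 genes with no such match the median was −0.01, with 12 above 0. Over all tested genes the 1989 with a match had a median of −0.02 and the 9680 without one 0.01. Without KO-TAC replicate 3 the median of the 9 was 0.24, the largest shift with 1 library left out, and with 1 library left out between 6 (without WT-TAC replicate 1) and 9 of them were above 0. A match in a sequence is not a bound site, and 9 genes read from the same 6 libraries are not replicates. The 9 also come from a list chosen with earlier results of these data known.

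Map1lc3b itself did not pass the test. It stood at 138, 120 and 98.4 CPM in KO-TAC replicates 1 to 3, against 84.9, 128 and 113 CPM in WT-TAC replicates 1 to 3. The groups overlap: the lowest library is WT-TAC replicate 1 and the next is KO-TAC replicate 3. Means were 119 ± 19.9 CPM in KO-TAC and 109 ± 22.0 CPM in WT-TAC (SD, n = 3), a ratio of 1.09 (95% interval 0.805 to 1.48) and an adjusted p of 0.999 in edgeR. Its log2 fold change of 0.13 ± 0.20 (SE) turned to −0.03 without WT-TAC replicate 1. It was 0.0083 without KO-TAC replicate 1, 0.25 without KO-TAC replicate 3 and 0.26 without WT-TAC replicate 2.

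The other Atg8 proteins are close relatives of LC3B that are conjugated to the same membranes. Map1lc3a, which encodes LC3A, had the highest level of the family per length of transcript, at 208 CPM per kilobase over the 6 libraries, followed by Gabarap at 66.6, Map1lc3b at 45.0, Gabarapl1 at 39.0 and Gabarapl2 at 24.9. The spread between libraries did not separate every neighbour in that order, since Map1lc3b ran from 33.5 to 54.6 CPM per kilobase and Gabarapl1 from 34.7 to 50.8. Divided by the length of all exons of the gene in place of the principal transcript, Map1lc3b falls behind Gabarapl1 and Gabarapl2, at 15.2 against 35.2 and 17.9.

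Gabarapl2, also known as GATE-16, had the largest difference in the family. It stood at 57.6, 54.4 and 34.3 CPM in KO-TAC replicates 1 to 3, against 36.0, 36.6 and 31.4 CPM in WT-TAC replicates 1 to 3. KO-TAC replicates 1 and 2 lie above all WT-TAC libraries, and KO-TAC replicate 3 lies among them. The log2 fold change was 0.49 ± 0.23 (SE), a ratio of 1.41 (95% interval 1.00 to 1.98), at an unadjusted p of 0.0496 and an adjusted p of 0.999 in edgeR, and 0.69 without KO-TAC replicate 3 (adjusted p = 0.597). Its value is uncertain, because 3 processed pseudogenes are 96.6% to 99.4% identical to it over 349 to 352 bases and their reads may be split from it or added to it.

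Gabarapl1 stood at 92.5, 71.1 and 65.5 CPM in KO-TAC replicates 1 to 3, against 66.1, 63.2 and 67.3 CPM in WT-TAC replicates 1 to 3, so KO-TAC replicate 1 alone was clearly above the rest. Map1lc3a had 238, 274 and 213 CPM in KO-TAC replicates 1 to 3 and 162, 244 and 256 CPM in WT-TAC replicates 1 to 3. Gabarap had 81.4, 93.1 and 93.7 CPM in KO-TAC replicates 1 to 3 and 106, 80.8 and 85.2 CPM in WT-TAC replicates 1 to 3. In both genes the library farthest from the others was WT-TAC replicate 1, low for Map1lc3a and high for Gabarap. Their log2 fold changes were 0.22 ± 0.19 for Gabarapl1, 0.13 ± 0.21 for Map1lc3a and −0.02 ± 0.18 for Gabarap (SE). Exons of Gabarapl1 share 570 bases with a transcript on the opposite strand, whose reads cannot be told apart from its own here.

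**Figure D2:**
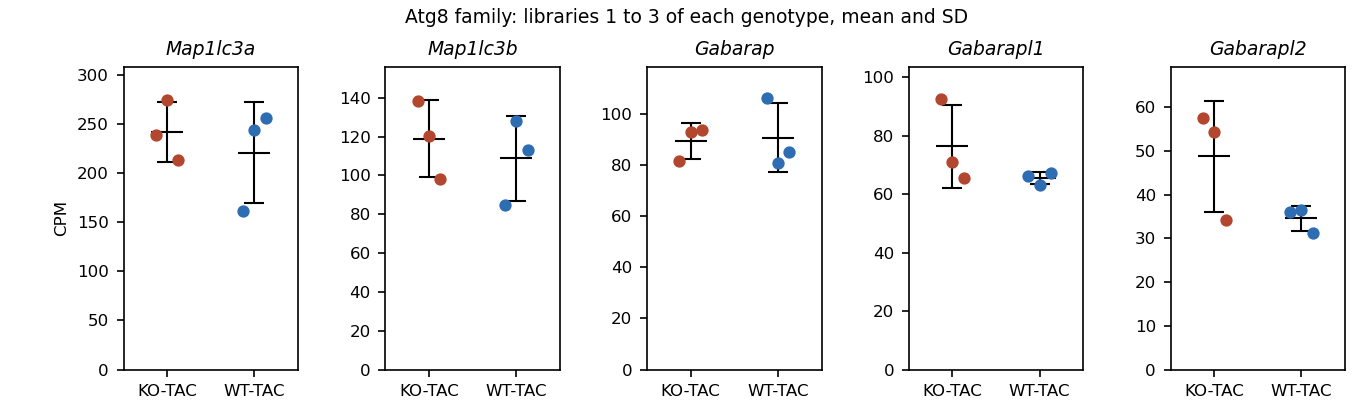
CPM of the 5 Atg8 family genes in each library (points, in replicate order from left to right) with the mean and SD of each genotype (n = 3), KO-TAC in red and WT-TAC in blue. Map1lc3b overlaps between the genotypes, and 2 of 3 KO-TAC libraries exceed every WT-TAC library in Gabarapl2.

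The initiation complex, in which the kinases Ulk1 and Ulk2 act with the adaptors Atg13 and Rb1cc1, had 3 of 4 genes below 0 and a median log2 fold change of −0.09. Rb1cc1, also known as FIP200, had the highest CPM of the complex and the widest spread among the 34 genes. It stood at 125, 92.0 and 219 CPM in KO-TAC replicates 1 to 3, against 154, 138 and 236 CPM in WT-TAC replicates 1 to 3. Both replicates 3 are far above the other libraries of their genotype. Its log2 fold change was −0.28 ± 0.31 (SE), and with single libraries left out it ran from −0.70 without KO-TAC replicate 3 to −0.00335 without WT-TAC replicate 3. Ulk2 was also highest in both replicates 3, with 132 CPM in KO-TAC replicate 3 and 134 in WT-TAC replicate 3, and between 76.6 and 110 in the other libraries. Log2 fold changes were −0.07 ± 0.17 for Ulk1, −0.11 ± 0.22 for Ulk2 and 0.13 ± 0.19 for Atg13 (SE).

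The lipid kinase complex makes phosphatidylinositol 3-phosphate on the growing membrane. Its catalytic subunit Pik3c3, also known as Vps34, had the lowest fold change of the 34 genes. It stood at 26.3, 33.3 and 24.7 CPM in KO-TAC replicates 1 to 3, against 45.3, 44.4 and 33.3 CPM in WT-TAC replicates 1 to 3. KO-TAC replicate 2 and WT-TAC replicate 3 are level, and otherwise KO-TAC lies below. The log2 fold change was −0.54 ± 0.22 (SE), a ratio of 0.686 (95% interval 0.492 to 0.957), at an unadjusted p of 0.0295 and an adjusted p of 0.999 in edgeR. Its value ran from −0.68 to −0.46 when libraries were dropped singly.

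Becn1, the scaffold of that complex and known as Beclin 1, stood at 47.3, 59.7 and 43.7 CPM in KO-TAC replicates 1 to 3, against 65.9, 62.1 and 53.1 CPM in WT-TAC replicates 1 to 3, a log2 fold change of −0.26 ± 0.20 (SE). The groups overlap through KO-TAC replicate 2. Becn1 shares 3104 exonic bases with Cntd1 on the opposite strand, so its count is uncertain. Atg14, the subunit that directs the complex to sites of autophagosome formation, differed in direction at 0.33 ± 0.32 (SE), with WT-TAC libraries spread from 9.44 to 18.9 CPM around KO-TAC libraries at 14.0 to 18.6 CPM. Its value was 0.14 without WT-TAC replicate 1 and 0.70 without WT-TAC replicate 2.

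At the growing membrane, Wipi1 and Wipi2 bind the lipid that Pik3c3 makes, and Atg9a is carried on vesicles and scrambles lipids. Wipi1 stood at 112, 139 and 106 CPM in KO-TAC replicates 1 to 3, against 96.6, 106 and 101 CPM in WT-TAC replicates 1 to 3. All KO-TAC libraries lie above all WT-TAC libraries, with KO-TAC replicate 3 only just so, and the log2 fold change was 0.23 ± 0.18 (SE). Wipi2, which recruits Atg16l1, had 0.17 ± 0.19 and Atg9a −0.02 ± 0.22. The count of Atg9a is uncertain, since it shares 1832 exonic bases with a transcript on its own strand.

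Conjugation enzymes differed little, with log2 fold changes from −0.15 for Atg3 to 0.20 for Atg12 and a median of −0.05 over 7 genes. Of these, 3 were above 0 and 4 below. Atg16l1, which together with the joined Atg12 and Atg5 proteins sets where LC3 is attached, had the highest CPM, at 51.4, 32.4 and 34.7 in KO-TAC replicates 1 to 3, against 43.7, 43.2 and 36.2 in WT-TAC replicates 1 to 3. KO-TAC replicate 1 is the highest library and KO-TAC replicates 2 and 3 the lowest. Atg7, the activating enzyme for both conjugation systems, was the lowest of the 34 genes per length, at 3.72 CPM per kilobase, and had a log2 fold change of 0.14 ± 0.29 (SE). Atg4b, the protease that primes LC3 and also releases it, had 0.19 ± 0.31 and stood at 10.4 CPM in WT-TAC replicate 1 against 18.2 to 23.6 CPM in the other libraries of both genotypes. Without WT-TAC replicate 1 its value was −0.09. Log2 fold changes were −0.06 ± 0.23 for Atg5 and −0.07 ± 0.35 for Atg10, the enzyme that joins Atg12 to Atg5. The count of Atg12 is uncertain, since stretches of it match several genes of the table, such as Syt11 over 164 bases (95.1% identity).

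Cargo receptors hold ubiquitin with one part and Atg8 proteins with another, and all 3 had fold changes above 0. Optn, optineurin, which takes part in the removal of damaged mitochondria, stood at 168, 210 and 227 CPM in KO-TAC replicates 1 to 3, against 148, 129 and 163 CPM in WT-TAC replicates 1 to 3. All KO-TAC libraries are above all WT-TAC libraries, though KO-TAC replicate 1 is close to WT-TAC replicate 3. The log2 fold change was 0.46 ± 0.19 (SE), a ratio of 1.38 (95% interval 1.04 to 1.82), at an unadjusted p of 0.0284 and an adjusted p of 0.999 in edgeR, and it ran from 0.37 to 0.58 with 1 library left out.

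Sqstm1, which encodes p62 and whose protein is degraded by the pathway it serves, had the highest CPM of the receptors, at 318, 382 and 345 in KO-TAC replicates 1 to 3, against 344, 334 and 317 in WT-TAC replicates 1 to 3. The libraries of both genotypes share one range but for KO-TAC replicate 2, and the log2 fold change was 0.07 ± 0.18 (SE). Nbr1, a related receptor, varied least between libraries among the 34 genes, at 162 to 173 CPM in KO-TAC and 147 to 166 CPM in WT-TAC, with a log2 fold change of 0.12 ± 0.17.

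Lysosomal enzymes had the highest median of any step, a log2 fold change of 0.25, and all 4 were above 0 though 0 passed the test in edgeR. Ctsl, cathepsin L, a cysteine protease of the lysosome, stood at 202, 199 and 125 CPM in KO-TAC replicates 1 to 3, against 103, 123 and 109 CPM in WT-TAC replicates 1 to 3. KO-TAC replicate 3 is barely above the highest WT-TAC library and far below the other KO-TAC libraries. Means were 175 ± 43.5 CPM in KO-TAC and 112 ± 10.1 CPM in WT-TAC (SD, n = 3), a ratio of 1.57 (95% interval 1.15 to 2.14). The log2 fold change was 0.65 ± 0.21 (SE), at an unadjusted p of 0.00771 and an adjusted p of 0.999 in edgeR. Without KO-TAC replicate 3 it was 0.84 with an adjusted p of 0.253, the lowest adjusted p of the 34 genes among the alternatives run. Ctsl shares 1742 exonic bases with an antisense transcript, whose reads cannot be told apart from its own here, and 395 bases with a processed pseudogene on its own strand. Neither has a row in the count table. Shorter stretches of Ctsl also match several genes of the table at 95% identity or more, such as Zmynd8 over 191 bases (95.3%), so its count is uncertain.

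Genes known to respond to pressure load stood, by the median of a list, high in KO-TAC replicates 1 and 2 and in WT-TAC replicate 1. That median was low in the other libraries. A list of 8 of them, which includes Nppa, Nppb and Myh7, had 6 fold changes above 0 and 0 called. It had median deviations from the mean over the 6 libraries of 0.63, 0.83 and −0.57 log2 units in KO-TAC replicates 1 to 3, against 0.43, −0.24 and −0.69 in WT-TAC replicates 1 to 3. Their sum ran from 11376 to 30722 CPM in KO-TAC and from 9860 to 24309 CPM in WT-TAC. In KO-TAC replicate 1, 7 of the 8 genes were above their mean. Myh7 was not, at 5607 CPM there against 6578 CPM in KO-TAC replicate 3 and 5846 CPM in WT-TAC replicate 2. Macrophages are rich in lysosomes, and all 14 of their listed markers passed the filter, with none at 0 counts in any library, 8 above 0 in fold change and 6 below. These markers summed to 602, 370 and 330 CPM in KO-TAC replicates 1 to 3, against 442, 417 and 407 CPM in WT-TAC replicates 1 to 3. Whether load or macrophages have a part in the Ctsl values was not tested. Markers of the vessel lining, 8 endothelial genes, had 7 fold changes above 0 and 0 called. Their sum was higher in KO-TAC, at 1397, 1267 and 1241 CPM in replicates 1 to 3, against 1045, 1151 and 985 CPM in WT-TAC replicates 1 to 3. Their median deviations overlapped between the genotypes. These were 0.36, 0.16 and −0.03 log2 units in KO-TAC replicates 1 to 3, against −0.24, 0.04 and −0.36 in WT-TAC replicates 1 to 3.

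KO-TAC replicate 3, low in Ctsl and Gabarapl2 among the KO-TAC libraries, also stood apart in other cell markers. Smooth muscle markers had median deviations of 0.17, 0.03 and −1.26 log2 units in KO-TAC replicates 1 to 3, against 0.49, 0.59 and 0.09 in WT-TAC replicates 1 to 3, with 7 of 8 fold changes below 0, a median of −0.67 and 0 called. Fibroblast markers stood at 0.63, 0.11 and −0.59 in KO-TAC replicates 1 to 3, against 0.31, −0.07 and −0.33 in WT-TAC replicates 1 to 3. Atrial muscle markers, of which 6 were tested, stood at 0.90, −0.09 and −1.86 in KO-TAC replicates 1 to 3, against 0.28, −0.01 and 0.62 in WT-TAC replicates 1 to 3, and Nppa is on both this list and the load list. By median deviation, KO-TAC replicate 1 was the highest library in fibroblast and atrial markers and KO-TAC replicate 3 the lowest. Of the 6 atrial genes, 5 were above their mean in KO-TAC replicate 1 and 1 in KO-TAC replicate 3. The latter was Kcnj3, at 105 CPM there, 109 CPM in KO-TAC replicate 1 and 226 CPM in WT-TAC replicate 3. Bmp10, which failed the filter, had 494 counts in WT-TAC replicate 2, 31 in KO-TAC replicate 3 and at most 2 elsewhere. By summed CPM the atrial markers were highest in WT-TAC replicate 1, at 8839 CPM against 7797 CPM in KO-TAC replicate 1. What part any of these lists has in the values of Ctsl and the other enzymes was not tested, and in whole hearts fewer cells of a type and less RNA per cell cannot be told apart.

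Ctsd, cathepsin D, an aspartic protease, was the most abundant of the 34 genes, at 401 CPM per kilobase, a level above that of 99.2% of 12029 tested genes with a matched length. It stood at 924, 1032 and 808 CPM in KO-TAC replicates 1 to 3, against 769, 790 and 798 CPM in WT-TAC replicates 1 to 3. All KO-TAC libraries are above, replicate 3 by little, and the log2 fold change was 0.23 ± 0.19 (SE). Its count is uncertain, since 808 exonic bases are shared with another coding gene on the same strand, Gm49369. Gaa, the acid alpha-glucosidase that digests glycogen in lysosomes and is deficient in human Pompe disease, stood at 166, 185 and 162 CPM in KO-TAC replicates 1 to 3, against 107, 155 and 161 CPM in WT-TAC replicates 1 to 3. KO-TAC replicate 3 and WT-TAC replicate 3 are almost level, and the log2 fold change of 0.28 ± 0.20 (SE) was 0.11 without WT-TAC replicate 1. Ctsb, cathepsin B, had 0.14 ± 0.18 and shares 774 exonic bases with Fdft1 on the opposite strand. Overlaps on the opposite strand also touch Sqstm1 (580 bases), Rb1cc1 (558), Lamp1 (249), Atg14 (239), Rab7 (204), Optn (73), Map1lc3b (58) and Atg9a (46).

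**Figure D3:**
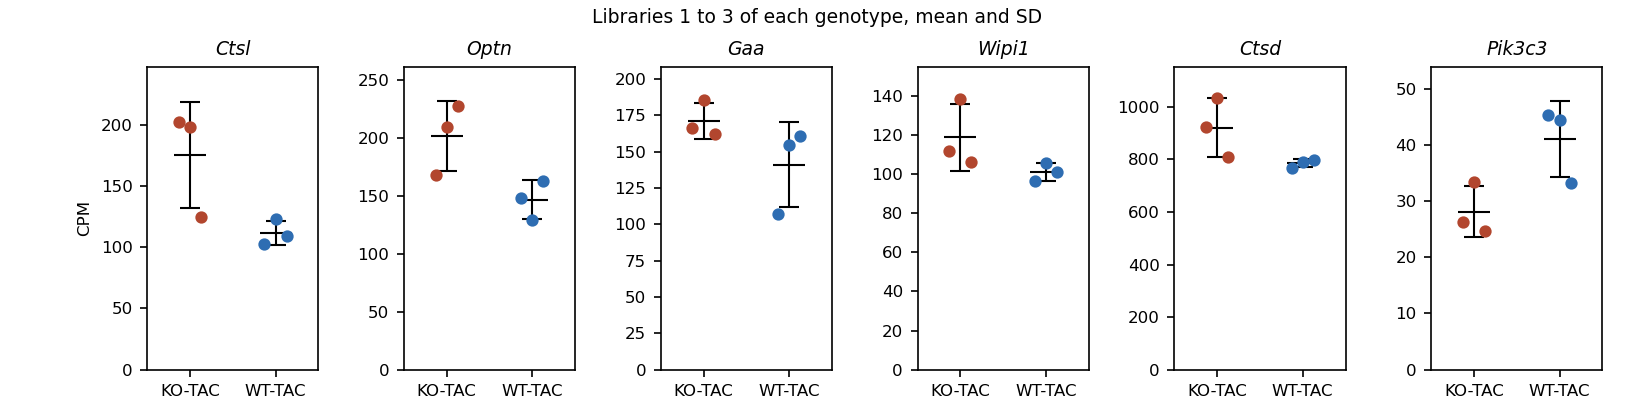
CPM in each library (points, in replicate order from left to right) with the mean and SD of each genotype (n = 3), KO-TAC in red and WT-TAC in blue, for the 5 genes whose KO-TAC libraries all exceed the WT-TAC libraries, and for Pik3c3. KO-TAC replicate 3, the right-hand red point, is the nearest to WT-TAC in Ctsl, Gaa, Wipi1 and Ctsd.

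Proteins of the lysosome membrane and of fusion differed little. Lamp1, the main glycoprotein of that membrane, stood at 315, 334 and 286 CPM in KO-TAC replicates 1 to 3, against 274, 324 and 352 CPM in WT-TAC replicates 1 to 3. The lowest and the highest library are both WT-TAC, and the log2 fold change was −0.02 ± 0.18 (SE), with a 95% interval of the fold of 0.746 to 1.30. Lamp2, loss of which causes human Danon disease with cardiomyopathy, had −0.01 ± 0.18, and Rab7, the small GTPase of fusion with the lysosome, 0.0025 ± 0.17. Rab7 has a processed pseudogene 98.4% identical over 622 bases, so its count is uncertain. Mcoln1, a calcium channel of the lysosome, had 0.14 ± 0.26 and its libraries spread from 18.5 to 31.3 CPM in KO-TAC and from 21.4 to 27.1 CPM in WT-TAC. Leaving out KO-TAC replicate 1 gave 0.0083, and leaving out KO-TAC replicate 2 gave 0.35.

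Tfeb, the transcription factor that switches on many lysosomal and autophagy genes, stood at 26.7, 28.9 and 22.6 CPM in KO-TAC replicates 1 to 3, against 32.6, 22.7 and 24.0 CPM in WT-TAC replicates 1 to 3. The groups share one range, and the log2 fold change was −0.01 ± 0.24 (SE). Its protein acts mainly by moving to the nucleus, which counts do not show. The motif it is known to bind, named CLEAR, was searched as TCACGTGA, which reads the same on both strands, in the 250 bases before and 50 bases after each RefSeq start (GRCm38.p6). It was found in 3 of the 27 genes of the 34 with a promoter entry, and in 251 of 17224 genes of the table with one (1.46%). The E-box it contains, CACGTG, which other factors bind too, was found in 9 of the 27 (the 3 included) and in 9.17% of those genes of the table. Shown are the 3 promoters with the longer and rarer motif, in capitals.
Ctsd, chr7:142387908-142387937, minus strand: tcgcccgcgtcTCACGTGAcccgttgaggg
Mcoln1, chr8:3500462-3500491, plus strand: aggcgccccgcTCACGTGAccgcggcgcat
Atg3, chr16:45158746-45158775, plus strand: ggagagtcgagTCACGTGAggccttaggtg

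The log2 fold changes of these 3 genes were 0.23 for Ctsd, 0.14 for Mcoln1 and −0.15 for Atg3. A motif match describes the letters only and is no evidence of binding in these hearts.

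Some of the 34 genes had the same library on top in both genotypes. In 10 of the 34 (29.4%, beside 16.7% of all tested genes) replicate 3 was the highest library of both genotypes at once: Ulk2, Rb1cc1, Atg3, Atg5, Atg10, Atg12, Nbr1, Optn, Lamp2 and Rab7. Replicate 1 was the highest of both in 2 of 34 (5.88%, beside 14.9% of all tested genes) and replicate 2 in 2 (5.88%, beside 10.6%). Over the 3 numbers that makes 14 of 34 (41.2%), near the 42.3% of all tested genes. Atg3, the enzyme that attaches LC3 to lipid, shows this pattern, with 40.5 CPM in KO-TAC replicate 3 and 40.5 in WT-TAC replicate 3, and 24.7 to 33.4 CPM in the other libraries. Atg10 had 14.3 CPM in KO-TAC replicate 3 and 14.7 in WT-TAC replicate 3, and 7.55 to 11.1 CPM elsewhere. Over all 34 genes the median deviation from the mean of the 6 libraries was 0.03, 0.09 and 0.03 log2 units in KO-TAC replicates 1 to 3, against −0.06, −0.07 and 0.01 in WT-TAC replicates 1 to 3. Their counts made up 0.449%, 0.446% and 0.406% of the totals of KO-TAC replicates 1 to 3, and 0.379%, 0.406% and 0.431% of those of WT-TAC replicates 1 to 3.

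**Figure D4:**
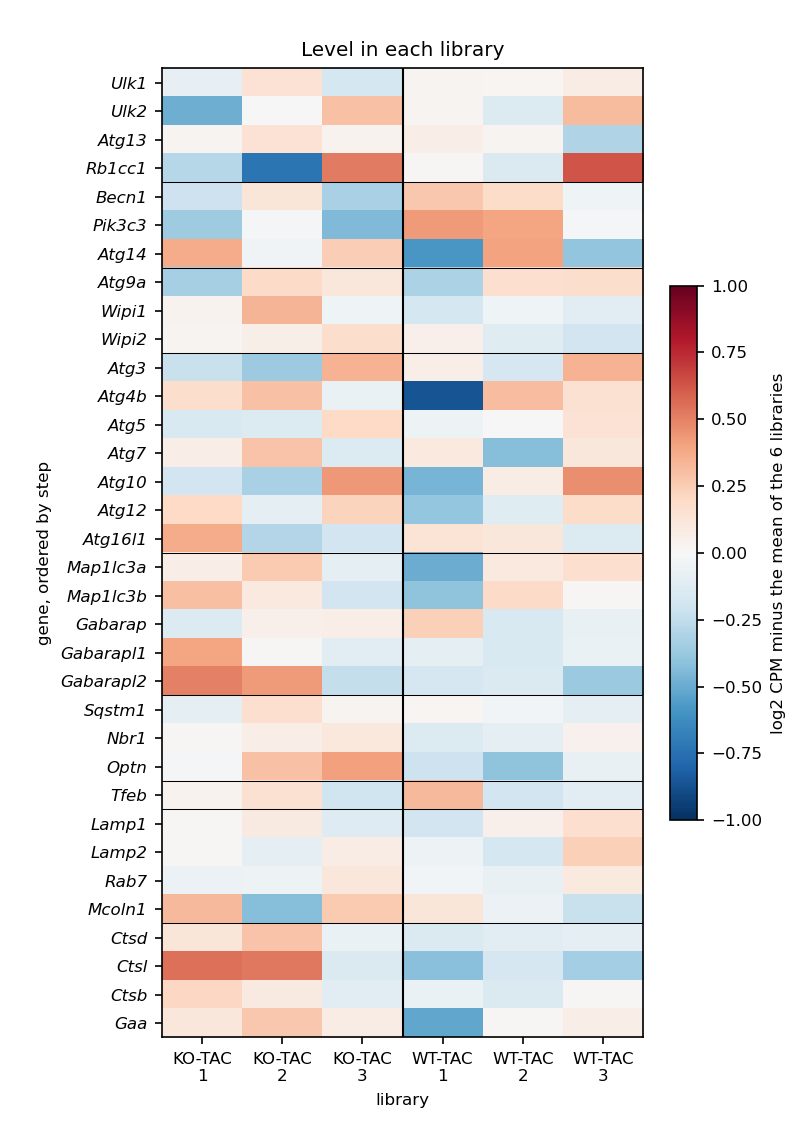
Log2 CPM of each of the 34 genes in each library minus the mean of the 6 libraries, with KO-TAC left and WT-TAC right and genes in the order of their steps. Red is above and blue below that mean. Rb1cc1, Atg3 and Atg10 are high in replicate 3 of both genotypes, Ctsl and Gabarapl2 are high in KO-TAC replicates 1 and 2, and Atg4b is low in WT-TAC replicate 1.

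In the wider pathway too, no gene was called. A list of 132 other autophagy and lysosome genes, by step, had 131 in the table and 130 tested, and 0 passed in edgeR, with 0 at an unadjusted p under 0.05 (2.93% of all tested genes). Of the 130, 78 were above 0 and 52 below, with a median log2 fold change of 0.05, against 0.001 over all tested genes. The lysosomal nutrient sensing group, the Ragulator and Rag proteins that hold mTORC1 at the lysosome and their regulators, had 8 of 10 above 0 and a median of 0.26. That value rests on WT-TAC replicate 1: median deviations were 0.01, 0.10 and 0.14 log2 units in KO-TAC replicates 1 to 3, against −0.29, 0.09 and 0.14 in WT-TAC replicates 1 to 3. Without WT-TAC replicate 1 the median fold change was 0.024, and leaving out KO-TAC replicate 3 gave 0.14. The vacuolar proton pump, which acidifies the lysosome, had 10 of 15 above 0 and a median of 0.15, between 0.05 when WT-TAC replicate 2 was left out and 0.22 when KO-TAC replicate 3 was. Other lysosomal hydrolases had 26 of 40 above 0 and a median of 0.04, which became −0.05, with 18 above 0, when KO-TAC replicate 1 was left out, and 0.17 when KO-TAC replicate 3 was. Members of the fusion machinery, such as the HOPS tether, had 4 of 12 above 0 and a median of −0.04, against 7 above 0 and 0.04 without KO-TAC replicate 1.

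Among the other pathway genes with the smallest p above 0 were Cd63, a membrane protein of late endosomes (0.43 ± 0.21), Ctsa, the serine carboxypeptidase cathepsin A (0.36 ± 0.18), and Vps18, a subunit of HOPS (0.50 ± 0.27, log2 fold change ± SE). Below 0 were Gm2a, the activator protein of ganglioside breakdown (−0.50 ± 0.27), Manba, a mannosidase (−0.40 ± 0.24), and Tsc1, an inhibitor of mTORC1 signalling (−0.31 ± 0.20). Cd63 stood at 90.9, 79.9 and 55.0 CPM in KO-TAC replicates 1 to 3, against 50.7, 59.7 and 57.8 CPM in WT-TAC replicates 1 to 3. As in Gabarapl2, KO-TAC replicates 1 and 2 are high and KO-TAC replicate 3 lies within the WT-TAC range. Manba stood at 23.5, 16.4 and 20.4 CPM in KO-TAC replicates 1 to 3, against 24.2, 28.5 and 27.0 CPM in WT-TAC replicates 1 to 3, with all KO-TAC libraries below, KO-TAC replicate 1 by little. Fold changes of lysosomal hydrolases thus lay on both sides of 0.

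**Figure D5:**
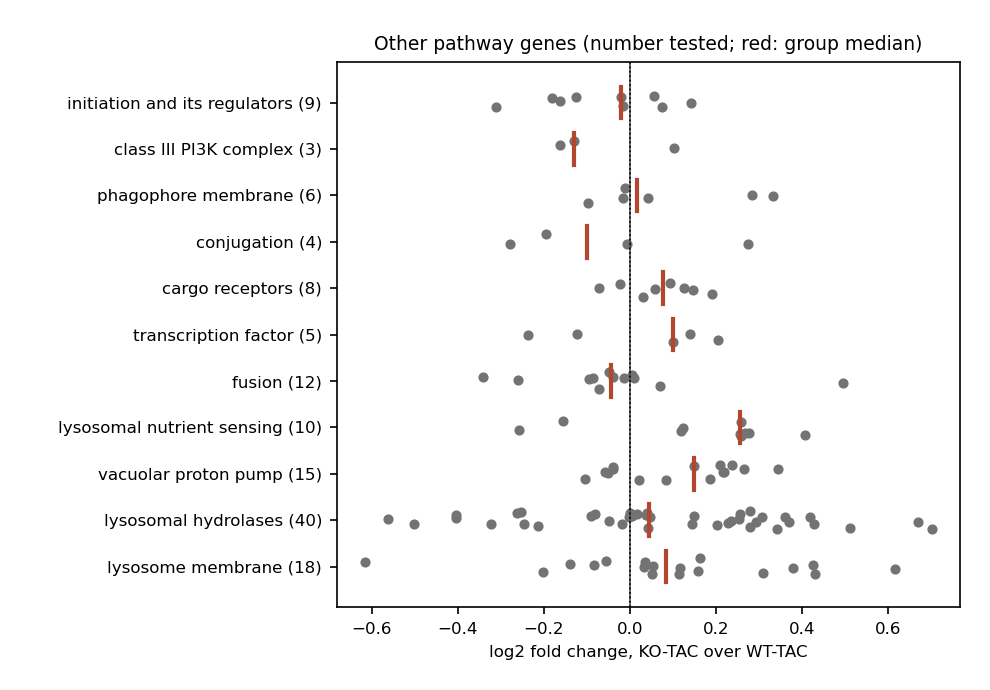
Log2 fold change, KO-TAC over WT-TAC, of 130 other autophagy and lysosome genes (grey points) by step, with the median of each step in red and the number tested in brackets. The dotted line is the median of all tested genes. The step medians lie between −0.13 and 0.26.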

How the data were processed

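The deposited values are raw read counts per gene, 1 column a library, not normalized. Named in the submitters' processing notes, without roles, are HISAT2 2.1.0, FastQC, edgeR and Subread, beside mm10 and GRCm38 as builds. Libraries were made with a plain or a stranded TruSeq kit, per the labels' protocols, and the sources used here do not say which sample had which.

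The test was that of edgeR 4.0.16 under R 4.3.3 (filterByExpr with a minimum count of 10, TMM scaling, robust quasi-likelihood fit with genotype alone), and p-values were adjusted by Benjamini-Hochberg over all 12487 tested genes, with a threshold of 0.05. Intervals at 95% use the t quantile of the gene's degrees of freedom, so that they match the test. The script was tested on simulated data. The common biological coefficient of variation was 0.286. Log2 CPM used a prior count of 2. Levels per kilobase use the principal transcript of GENCODE M21 (GRCm38). Matches of the seed were searched in every coding transcript, and near-identical copies with blastn (at least 95% identity over 100 bases).

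The members, the wider list of 132 genes and the marker lists were chosen with earlier results of these data known. Named with values per library are genes with an unadjusted p under 0.1, the Atg8 family, the gene with the highest CPM of each step, and of the wider list the 4 smallest p each way, of which some are not reported here. Gaa, Ulk2, Atg3, Atg4b, Atg10, Nbr1, Cd63 and Manba were chosen for their library values after these were seen. Alternatives were other scalings, filters, DESeq2 1.42.0, limma-voom (limma 3.58.1), the replicate number as a block and each library left out. Libraries sharing a replicate number were not taken as pairs.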

Additional observations from a re-analysis of the deposited data

How the results depend on the processing

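Of the 34 genes 0 were called under every alternative run: RLE, upper-quartile or no scaling, no filter or a minimum count of 30, DESeq2, limma-voom, the replicate block and each library left out. The same was true of the 130 other pathway genes. Few genes of the whole table were called in any alternative. The number was 0 of 12487 in limma-voom, 0 of 12866 without WT-TAC replicate 1, 16 of 12487 in DESeq2, and at most 21 of 17724, with no filter. At an unadjusted p under 0.05, DESeq2 and limma-voom each had 3 of the 34, beside 397 and 364 of all 12487 tested genes. The median log2 fold change of the 34 genes ran from 0.10 to 0.13 over the alternatives with all libraries, and with any 7mer match counted the genes with a match had 0.14. Replicate numbers are shared by the labels, but deviations of same-numbered libraries correlated at 0.135, 0.011 and 0.257, so not every pair passed 0.1 and the numbers were not taken as pairs. The last, of both replicates 3, was the highest of 9 correlations across genotypes, while KO-TAC replicate 2 correlated best with WT-TAC replicate 1 (0.146). With the replicate block the median was 0.12, Map1lc3b had 0.13, and 0 genes were called. Rab7 turned to −0.025 without scaling and −0.00052 with a minimum count of 30, and Tfeb to 0.016 in limma-voom; the cause was not tested.

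With 1 library left out the direction turned in at least 1 case for genes near 0, whose log2 fold changes ran from −0.31 to 0.073 for Ulk2, −0.17 to 0.13 for Atg9a, −0.18 to 0.0061 for Atg5, −0.34 to 0.18 for Atg10, −0.29 to 0.072 for Atg16l1, −0.096 to 0.10 for Gabarap, −0.11 to 0.16 for Tfeb, −0.12 to 0.060 for Lamp1, −0.10 to 0.11 for Lamp2, −0.056 to 0.055 for Rab7, −0.094 to 0.41 for Atg4b, −0.020 to 0.24 for Atg7, −0.054 to 0.25 for Map1lc3a and −0.026 to 0.26 for Map1lc3b. Ctsl, Optn, Pik3c3, Gabarapl2 and the other genes kept their direction in all 6, but Atg3 ran from −0.39 to −0.0018, Gabarapl1 from 0.061 to 0.32 and Sqstm1 from 0.0016 to 0.13. Alternatives that drop a library from the counts of low unadjusted p, of genes whose groups do not overlap and of genes with a seed match, or from the medians of other pathway steps, and the length over all exons, were chosen after seeing the data.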
